A study of Mus musculus with 15 samples.

Results

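The genes described here are 8 regulators of the cell cycle in mouse embryonic fibroblasts (MEFs): the cyclin-dependent kinase (CDK) inhibitor genes Cdkn1a, Cdkn1b, Cdkn2a, Cdkn2b and Cdkn2c, the p53 gene Trp53, and the p53 targets Mdm2 and Ccng1. They were chosen by name, and all 8 were found among the 46603 Ensembl gene IDs in each count file. Cdkn1a is counted both as a CDK inhibitor and as a p53 target. RNA sequencing was done on MEFs of the BALB/c strain, from 10.5 day embryos, that lack both, 1 or neither copy of the beta-actin gene Actb. Confluent cells on Matrigel were moved from DMEM to OsteoMax-XF osteogenic medium with dexamethasone, a glucocorticoid, and forskolin, which raises cAMP, and RNA was taken at 2 times. All 5 groups had this treatment, so none is untreated. The study asked how gene expression in the resulting cells differs with the Actb genotype.

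The groups are beta-actin knockout (KO), heterozygote (HET) and wild type (WT) cells at day 14, and KO and WT cells at day 4, with 3 libraries each and 15 in all. No HET library of day 4 was analysed here. The labels name 1 laboratory as the source of the MEFs, and do not say how many embryos or lines stand behind a genotype, or whether replicates are separate cultures. The p-values therefore measure the spread between these libraries, which may be technical, and a difference between lines cannot be told apart from a difference between genotypes. In bulk RNA, fewer cells of a type and less RNA per cell cannot be told apart either.

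The p53 protein is a transcription factor that stress signals stabilise. Among the genes it switches on are Cdkn1a, whose product p21 holds CDK complexes inactive, Ccng1, which encodes cyclin G1, and Mdm2, which encodes the ubiquitin ligase that marks p53 for destruction and so closes a feedback loop. The INK4 genes Cdkn2a, Cdkn2b and Cdkn2c encode inhibitors of CDK4 and CDK6, and Cdkn2a also encodes p19Arf, which blocks the Mdm2 protein; Cdkn2a expression is well known to climb as MEFs are kept in culture.

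Promoter sequences of all 8 genes were matched by symbol in the RefSeq table of GRCm38.p6, which gave 11 windows of the 250 bases before a transcription start. The search covered both strands for a pair of motifs: the p53 half-site, a motif of 10 letters, and the cAMP response element TGACGTCA, its own reverse complement. The half-site was in 7.13% and TGACGTCA in 1.55% of 32851 RefSeq windows of the same length. The 5 windows with a match are printed 5′ to 3′ on the strand of the gene, because they are the ones that hold a motif of p53 or of the cAMP response; capitals mark the matches. The first base of the transcript is numbered 1 and the base before it -1.
Cdkn1a, chr17:29090729-29090978, plus strand: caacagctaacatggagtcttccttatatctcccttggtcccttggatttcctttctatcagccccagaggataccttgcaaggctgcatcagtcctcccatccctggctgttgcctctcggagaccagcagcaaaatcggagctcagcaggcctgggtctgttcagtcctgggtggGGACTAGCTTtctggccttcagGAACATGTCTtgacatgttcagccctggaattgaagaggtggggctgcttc
Mdm2, chr10:117710759-117711008, minus strand: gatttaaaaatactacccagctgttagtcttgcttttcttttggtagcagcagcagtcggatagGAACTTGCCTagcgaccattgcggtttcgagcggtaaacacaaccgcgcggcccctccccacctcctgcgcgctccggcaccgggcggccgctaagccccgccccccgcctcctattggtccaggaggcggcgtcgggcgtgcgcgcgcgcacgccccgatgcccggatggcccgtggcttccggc
Ccng1, chr11:40755287-40755536, minus strand: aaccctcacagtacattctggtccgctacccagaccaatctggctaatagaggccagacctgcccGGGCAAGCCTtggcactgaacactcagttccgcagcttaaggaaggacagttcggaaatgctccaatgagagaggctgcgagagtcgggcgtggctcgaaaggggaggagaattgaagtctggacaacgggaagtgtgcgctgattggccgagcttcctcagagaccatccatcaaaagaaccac
Trp53, chr11:69580109-69580358, plus strand: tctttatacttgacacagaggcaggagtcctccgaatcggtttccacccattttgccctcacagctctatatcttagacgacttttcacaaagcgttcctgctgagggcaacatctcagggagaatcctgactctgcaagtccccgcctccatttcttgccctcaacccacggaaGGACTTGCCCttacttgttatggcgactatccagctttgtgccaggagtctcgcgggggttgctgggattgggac
Cdkn2b, chr4:89311033-89311282, minus strand: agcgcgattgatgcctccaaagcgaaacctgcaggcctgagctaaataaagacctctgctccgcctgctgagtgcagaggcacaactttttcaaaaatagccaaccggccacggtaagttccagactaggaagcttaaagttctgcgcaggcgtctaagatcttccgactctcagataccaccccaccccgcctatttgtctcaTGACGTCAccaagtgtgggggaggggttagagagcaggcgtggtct

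In the upstream of the 2 Cdkn1a windows, the half-sites lay at -73 to -64 and -51 to -42, with 12 bases between them. A pair of half-sites at most 13 bases apart was in 21 windows, or 0.0639% of all. Mdm2 held a half-site at -186 to -177, Ccng1 at -185 to -176 and Trp53 at -75 to -66. The Cdkn2b window held TGACGTCA at -46 to -39. The 2 windows of Cdkn2a, the 2 of Cdkn2c, the 1 of Cdkn1b and the other Cdkn1a window held neither motif. Only exact matches to a motif were marked, so a site with a mismatch, also one directly beside a marked match, was not counted. A match describes the letters and does not show that a factor binds.

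Library totals ran from 19.88 to 24.82 M counts at day 14 and from 25.67 to 47.49 M counts at day 4. Levels below are CPM, the count of a gene scaled to the size of its library, on TMM-scaled library sizes. Actb, the gene deleted, had 46.5, 43.0 and 44.6 CPM in KO libraries of day 14, against 1488, 1642 and 1437 CPM in HET and 2947, 2974 and 3067 CPM in WT. At day 4 it had 130, 139 and 135 CPM in KO, against 1193, 1186 and 1164 CPM in WT. The order of Actb followed the labels, although KO cells kept some counts on the gene. HET replicate 2 stood apart: over all genes, the chi-square of its counts against the other 2 HET libraries was 50.3 and 50.5 per degree of freedom, against 2.88 between those 2. The WT libraries of day 14 differed from each other by 5.03 to 18.7, and the other 3 groups by 2.15 to 3.01. The labels call the cells of all groups reprogrammed osteoblasts. Of 10 osteoblast markers 5 were tested and 5 were under the filter on low counts. The sum of the 10 was 3126 to 3223 CPM in KO, 3182 to 3862 CPM in HET and 2880 to 3130 CPM in WT at day 14, and 6628 to 6735 CPM in KO against 4944 to 5012 CPM in WT at day 4. Most of it came from Spp1, with group means of 1461 to 5068 CPM, and Sparc, with 1356 to 1803 CPM. Runx2, the transcription factor of early osteoblasts, averaged 31.8 CPM in KO, 30.6 CPM in HET and 20.6 CPM in WT at day 14. Its day 4 means were 50.8 CPM in KO and 71.2 CPM in WT. The alkaline phosphatase gene Alpl averaged 32.0 CPM in KO, 8.29 CPM in HET and 128 CPM in WT at day 14. At day 4 Alpl averaged 3.39 CPM in KO against 22.0 CPM in WT, so it was highest in WT on each day. Phex went the other way at day 4, with 11.4 CPM in KO against 1.01 CPM in WT, and averaged at most 0.362 CPM in any group at day 14. The later markers Ibsp and Dmp1 had no count in the KO groups or in WT at day 4, and Ibsp had none in HET; Sp7, Bglap and Mepe averaged at most 0.249 CPM in any group. Summed over 9 macrophage markers the level was 119 to 126 CPM in KO at day 14, 189 to 214 CPM in HET and 37.0 to 39.2 CPM in WT. At day 4 that sum was 83.9 to 87.2 CPM for KO, against 79.4 to 84.3 CPM for WT. At day 14 Cd14 (81.6 CPM in KO, 146 CPM in HET and 29.0 CPM in WT), Cd68 (37.9 CPM in KO, 7.08 CPM in HET and 6.27 CPM in WT) and, in HET, Cybb (45.8 CPM) made up most of that sum. The lineage markers Ptprc, Adgre1, Csf1r and Aif1 averaged under 1 CPM in every group. Csf1r had 0.0566 CPM in KO, 0.308 CPM in HET and 0.590 CPM in WT at day 14. The part of these markers in the results below was not tested.

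**Figure D1:**
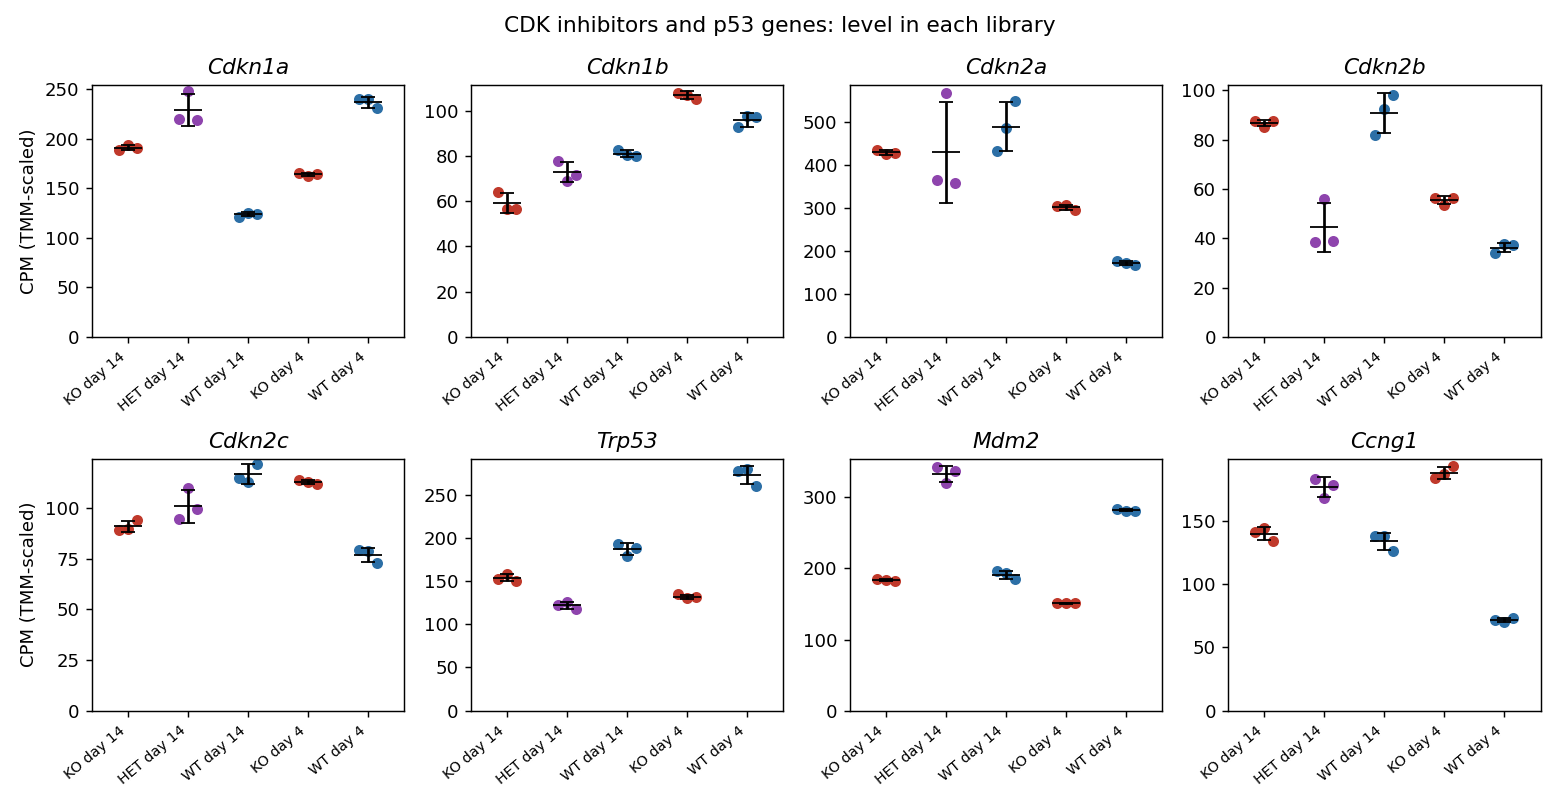
Level of each gene in CPM (vertical axes, from 0) in each of the 15 libraries, grouped by genotype and day. Points are libraries, and the bar with whiskers is the mean ± SD of 3; Mdm2 is highest in HET libraries, between 320 and 342 CPM, and Cdkn2a is spread widely in HET, between 358 and 567 CPM.

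Trp53 was lower than in WT in KO cells at both days and in HET cells. At day 14 it had 153, 158 and 150 CPM in KO libraries, 122, 126 and 118 CPM in HET and 193, 179 and 188 CPM in WT. At day 4 the level was 135, 130 and 132 CPM in KO, against 278, 280 and 260 CPM in WT. No 2 groups overlapped. At day 14 KO was lower than WT by a log2 fold change of -0.28 ± 0.05 (standard error of the fit, as for all ± after a log2 value; adjusted p = 0.000116, edgeR quasi-likelihood test). At day 4 the difference was -1.05 ± 0.05 (adjusted p = 1.86e-11), so that the KO effect changed between the days by 0.76 ± 0.07 (adjusted p = 8.12e-08). HET was lower than WT by -0.61 ± 0.05 and KO higher than HET by 0.33 ± 0.05 (adjusted p = 2.79e-08 and 2.56e-05). Over time the genotypes went opposite ways: KO rose at day 14 against day 4 by 0.22 on the log2 scale and WT fell by 0.55 (adjusted p = 0.00113 and 4.23e-08).

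Mdm2, the ubiquitin ligase that p53 induces, was set apart by HET. It had 185, 184 and 182 CPM in KO libraries of day 14, 342, 320 and 337 CPM in HET and 196, 193 and 185 CPM in WT. The level at day 4 was 152, 151 and 151 CPM in KO, against 284, 281 and 281 CPM in WT. HET libraries lay above all others, and KO and WT overlapped at day 14 but not at day 4. HET was higher than WT by 0.80 ± 0.04 and KO lower than HET by -0.86 ± 0.04 (adjusted p = 2.64e-10 and 1.07e-10). At day 14 the difference of KO over WT, -0.06 ± 0.04, did not pass the threshold of an adjusted p of 0.05 (adjusted p = 0.255, 95% interval -0.15 to 0.03). At day 4 KO was lower by -0.90 ± 0.04 (adjusted p = 2.28e-11). The KO effect changed between the days by 0.84 ± 0.06 (adjusted p = 5.64e-09). Day 14 against day 4 gave 0.28 ± 0.04 in KO and -0.56 ± 0.04 in WT (adjusted p = 3.11e-05 and 6.54e-09).

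The counts of Mdm2 over those of Trp53 in the same library compare the RNA of these genes, free of any scaling between libraries. The feedback loop runs through the proteins, which were not measured, so this ratio does not show the state of the loop. The ratio was 1.17 to 1.22 in KO libraries of day 14, 2.54 to 2.87 in HET and 0.984 to 1.08 in WT. The day 4 ratio was 1.13 to 1.16 in KO against 1.0 to 1.08 in WT. HET alone, of the 5 groups, combined the lowest mean level of Trp53, 122 CPM, with the highest of Mdm2, 333 CPM. In KO the ratio stayed above that of WT at both days, with no overlap.

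Cdkn1a, which encodes p21, turned round between the days. Its level at day 14 was 189, 194 and 191 CPM in KO libraries, 220, 248 and 219 CPM in HET and 121, 125 and 124 CPM in WT. At day 4 it was 165, 162 and 164 CPM in KO, against 240, 240 and 231 CPM in WT. Groups of the same day did not overlap, and the HET range took in that of WT at day 4. KO was higher than WT at day 14 by 0.63 ± 0.05 and lower at day 4 by -0.53 ± 0.05 (adjusted p = 2.78e-08 and 8.27e-08), a change in the KO effect of 1.16 ± 0.07 (adjusted p = 7.88e-10). HET was higher than WT by 0.89 ± 0.05 (adjusted p = 4.86e-10), and KO lower than HET by -0.26 ± 0.05 (adjusted p = 0.000293). KO at day 14 was higher than at day 4 by 0.22 ± 0.05 (adjusted p = 0.00104), and WT lower by -0.94 ± 0.05 (adjusted p = 9.86e-11).

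Ccng1 ran against Trp53 and Mdm2 at day 4. It had 141, 144 and 134 CPM in KO libraries of day 14, 183, 168 and 178 CPM in HET and 138, 138 and 126 CPM in WT. The level at day 4 was 184, 187 and 193 CPM in KO, against 71.3, 70.3 and 73.5 CPM in WT. WT at day 4 was below every other library, and KO and WT overlapped at day 14. The day 4 difference of 1.39 ± 0.05 was the largest KO effect of the 8 genes in either direction at either day (adjusted p = 1.72e-12), while that of day 14, 0.06 ± 0.05, did not pass (adjusted p = 0.326, 95% interval -0.05 to 0.17). The KO effect thus changed by -1.33 ± 0.07 (adjusted p = 3.02e-10). Day 14 against day 4 gave -0.43 ± 0.05 in KO and 0.90 ± 0.05 in WT (adjusted p = 3.11e-06 and 3.05e-10). HET was higher than WT by 0.40 ± 0.05 and KO lower than HET by -0.34 ± 0.05 (adjusted p = 8.04e-06 and 4.31e-05). The ratio of Ccng1 to Mdm2 counts, 2 targets of the same factor, was 0.735 to 0.782 in KO, 0.525 to 0.536 in HET and 0.682 to 0.713 in WT at day 14. The day 4 ratio was 1.21 to 1.28 in KO, against 0.250 to 0.261 in WT.

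**Figure D2:**
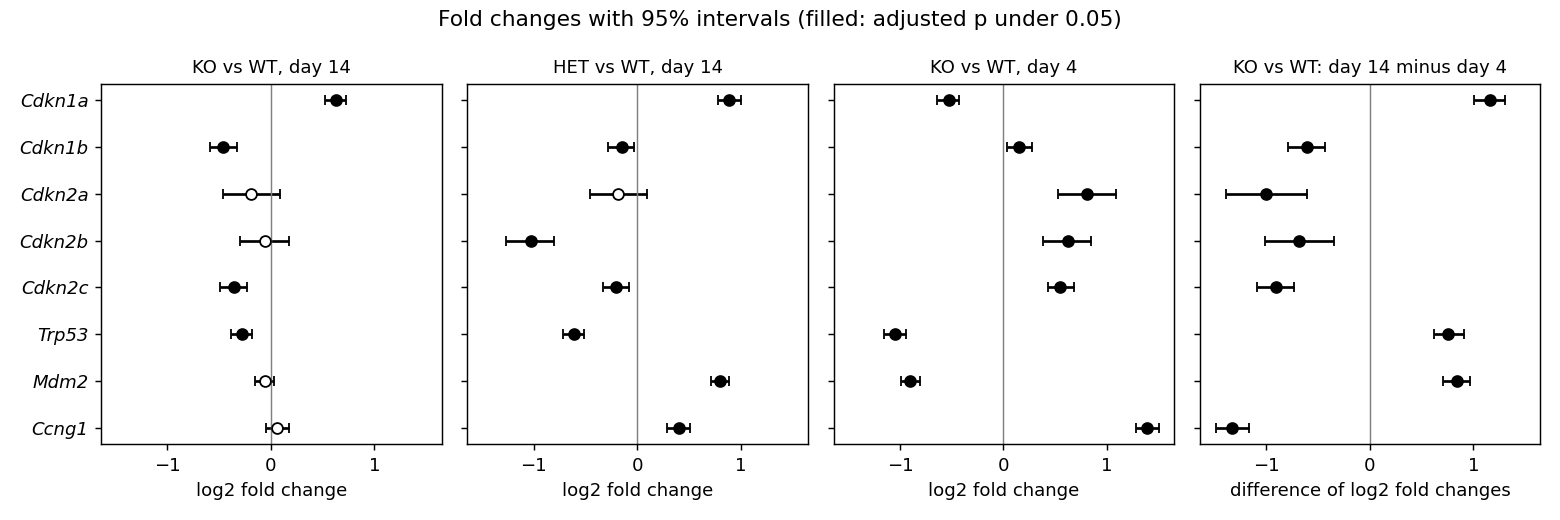
Log2 fold changes of the 8 genes (points, with 95% intervals of the fit) for KO over WT and HET over WT at day 14, KO over WT at day 4, and the difference between the 2 KO effects. Filled points have an adjusted p under 0.05; all 8 are filled at day 4 and in the difference, and 4 at day 14.

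Cdkn1b encodes p27, which binds cyclin E and CDK2 complexes and is known to build up in cells that stop dividing. At day 14 it had 64.1, 56.4 and 56.6 CPM in KO libraries, 77.6, 69.1 and 71.5 CPM in HET and 82.7, 80.3 and 80.1 CPM in WT. At day 4 the level was 108, 107 and 105 CPM in KO, against 92.6, 97.8 and 97.4 CPM in WT. No 2 groups overlapped, and KO was both the highest group, at day 4, and the lowest, at day 14. KO at day 14 was lower than at day 4 by -0.85 ± 0.06 (adjusted p = 5.32e-09) and WT by -0.24 ± 0.06 (adjusted p = 0.00154). KO was lower than WT at day 14 by -0.46 ± 0.06 (adjusted p = 7.63e-06), and the KO effect changed between the days by -0.61 ± 0.08 (adjusted p = 1e-05). The smaller differences of KO over WT at day 4, 0.15 ± 0.06, and of HET over WT, -0.15 ± 0.06, passed narrowly (adjusted p = 0.0305 and 0.0373) and no longer did with RLE scaling (adjusted p = 0.0516 and 0.0544) or with no filter beyond 1 count (adjusted p = 0.216 and 0.292). The call of HET over WT also ended with only the groups compared in the fit (adjusted p = 0.191). Leaving out any 1 library of the groups compared ended the first call, with an adjusted p of 0.0518 to 0.142. For the second, leaving out WT replicate 1, 2 or 3 or HET replicate 2 or 3 did so, with 0.0683 to 0.101.

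Cdkn2a, the gene of p16Ink4a and p19Arf, lies at chr4:89274471-89294653 (GRCm38, minus strand) and beside Cdkn2b, chr4:89306299-89311039. Its 2 products start from separate first exons and share later ones, so counts per gene do not tell them apart. The level at day 14 was 436, 427 and 428 CPM in KO libraries, 366, 567 and 358 CPM in HET and 433, 487 and 549 CPM in WT. At day 4 it was 304, 308 and 295 CPM in KO, against 176, 173 and 168 CPM in WT. The 3 groups of day 14 overlapped, and every day 14 library was above every day 4 library. KO was higher than WT at day 4 by 0.81 ± 0.13 (adjusted p = 4.29e-05). KO at day 14 was higher than at day 4 by 0.51 ± 0.13 and WT by 1.51 ± 0.13 (adjusted p = 0.00303 and 4.06e-08), so the KO effect changed by -1.0 ± 0.18 (adjusted p = 0.000188). At day 14 none of the 3 comparisons passed, with KO over WT at -0.19 ± 0.13 (adjusted p = 0.223), HET over WT at -0.19 ± 0.13 (adjusted p = 0.232) and KO over HET at 0.00 ± 0.13 (adjusted p = 1). The HET value rests on replicate 2, which was 56.5% above the mean of the other 2. Without it HET was lower than WT by -0.44 (adjusted p = 2.8e-06) and KO higher than HET by 0.25 (adjusted p = 0.00167). KO over WT at day 14, at -0.19, passed where only those 2 groups were fitted (adjusted p = 0.0295).

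Cdkn2b encodes p15Ink4b, an inhibitor that TGF-beta is known to induce. It had 87.5, 85.2 and 87.5 CPM in KO libraries of day 14, 38.4, 55.8 and 38.9 CPM in HET and 81.9, 92.2 and 98.1 CPM in WT. The level at day 4 was 56.5, 53.6 and 56.4 CPM in KO, against 34.0, 37.6 and 37.1 CPM in WT. HET was below KO and WT of its day with no overlap, and KO and WT overlapped at day 14 only. HET was lower than WT by -1.03 ± 0.11 and KO higher than HET by 0.97 ± 0.11 (adjusted p = 9.87e-07 and 1.97e-06). Without HET replicate 2 these were -1.23 and 1.16 (adjusted p = 8.85e-14 and 2.75e-13). KO over WT, at -0.06 ± 0.11, did not pass at day 14 (adjusted p = 0.626), and KO was higher by 0.62 ± 0.11 at day 4 (adjusted p = 0.000122). KO at day 14 was higher than at day 4 by 0.64 ± 0.11, and WT by 1.33 ± 0.11 (adjusted p = 9.55e-05 and 2.38e-08). The KO effect changed by -0.68 ± 0.15 (adjusted p = 0.00115).

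The ratio of Cdkn2b to Cdkn2a counts was lower in HET than in any other group. It was 0.200 to 0.205 in KO libraries of day 14, 0.0985 to 0.109 in HET and 0.179 to 0.189 in WT, and at day 4 it was 0.174 to 0.191 in KO and 0.193 to 0.220 in WT. HET replicate 2, high for both genes, had the lowest ratio of its group, 0.0985, so that the HET ratio was below every other library with or without it.

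**Figure D3:**
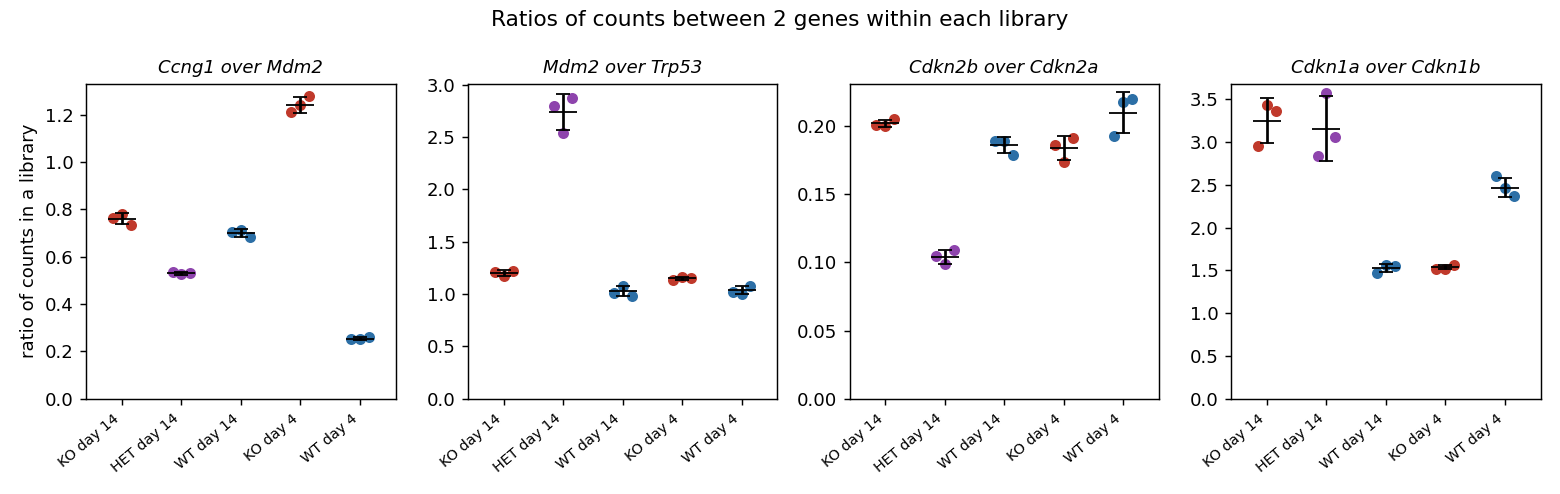
Ratios of the counts of 2 genes within each library (vertical axes, from 0), by genotype and day; points are libraries, and the bar with whiskers is the mean ± SD of 3. Mdm2 over Trp53 is 2.54 to 2.87 in HET, Cdkn2b over Cdkn2a is 0.0985 to 0.109 there, and Ccng1 over Mdm2 is 1.21 to 1.28 in KO at day 4, each away from all other groups.

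Cdkn2c encodes p18Ink4c and lies on chromosome 4 away from the other pair. At day 14 it had 89.4, 89.8 and 94.1 CPM in KO libraries, 94.5, 110 and 99.4 CPM in HET and 115, 113 and 122 CPM in WT. The level at day 4 was 114, 113 and 112 CPM in KO, against 79.3, 78.7 and 72.8 CPM in WT. Of the neighbours in level, WT at day 14 and KO at day 4 overlapped. KO was lower than WT at day 14 by -0.36 ± 0.06 and higher at day 4 by 0.55 ± 0.06 (adjusted p = 8.58e-05 and 5.1e-07), a change of -0.91 ± 0.08 (adjusted p = 1.2e-07). Day 14 against day 4 gave -0.31 ± 0.06 in KO and 0.60 ± 0.06 in WT (adjusted p = 0.000296 and 1.81e-07). HET was lower than WT by -0.20 ± 0.06 (adjusted p = 0.00838), a call that ended without HET replicate 1 (-0.15, adjusted p = 0.051), with no filter beyond 1 count (-0.18, adjusted p = 0.0756) and with only the groups compared in the fit (-0.19, adjusted p = 0.0977). KO was lower than HET by -0.15 ± 0.06 (adjusted p = 0.0374). That call ended without KO replicate 1, KO replicate 2 or HET replicate 2 (adjusted p = 0.0982 to 0.131), with no filter beyond 1 count (adjusted p = 0.254), with only the groups compared (adjusted p = 0.127) and with the replicate number as a block (adjusted p = 0.0519).

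Counted over the 8 genes, KO against WT at day 14 passed the threshold for 4, where 63.1% of 15296 tested genes did: 1 was higher (30.9% of tested genes were) and 3 lower (32.2%). At day 4 it passed for all 8, where 69.5% of tested genes did, with 5 higher (35.7%) and 3 lower (33.8%). HET against WT passed for 7 (58.3% of tested genes), 3 of them higher (28.3%) and 4 lower (29.9%). KO against HET also passed for 7 (59.5%), 2 of them higher (29.4%) and 5 lower (30.1%). Day 14 against day 4 passed for all 8 in KO (60.9%), with 5 higher (30.8%) and 3 lower (30.1%), and for all 8 in WT (74.6%), with 4 higher (39.7%) and 4 lower (34.9%). The KO effect differed between the days for all 8, against 64.7% of tested genes, upward for 3 (30.7%) and downward for 5 (34.0%). The median log2 fold change of the 8 was -0.13 for KO over WT at day 14 and 0.35 at day 4, beside -0.02 and 0.03 over all genes. In KO against WT at day 14, Cdkn1a was higher, and Trp53, Cdkn1b and Cdkn2c were lower. At day 4 the INK4 genes, Cdkn1b and Ccng1 were higher in KO, and Trp53, Mdm2 and Cdkn1a lower. These comparisons share libraries and are not independent of each other.

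Set against exon length, as CPM per kilobase, Cdkn2a was the most abundant of the 8 in every group, with means of 367 in KO, 367 in HET and 418 in WT at day 14, and 258 in KO and 147 in WT at day 4. Next came Cdkn2b in KO and WT at day 14, with 62.4 and 65.3, Mdm2 in HET with 65.5, Ccng1 in KO at day 4 with 53.5 and Trp53 in WT at day 4 with 67.4. Cdkn1b was the least abundant in 4 groups, at 13 to 23.4, and Ccng1, at 20.4, in WT at day 4. The ranks behind Cdkn2a thus differed from group to group.

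Of a list of 40 further p53 target genes, 37 were tested. KO against WT passed for 26 at day 14, 14 higher and 12 lower, and for 28 at day 4, 19 higher and 9 lower. These are 70.3% and 75.7% of the list, beside 63.1% and 69.5% of all tested genes. At day 14, 5 of the 37 differed at least 2-fold, where 23.2% of all tested genes did, and at day 4, 15 did, where 30.4% of all did. Ephx1, an epoxide hydrolase, averaged 82.8 CPM in KO against 4.47 CPM in WT at day 4 (4.20 ± 0.08, adjusted p = 3.37e-16), and the apoptosis gene Perp 34.9 against 4.16 CPM (3.08 ± 0.10, adjusted p = 1.91e-13). Sesn1, a sestrin of the stress response, had 138 CPM in KO and 44.7 CPM in WT (1.62 ± 0.06, adjusted p = 1.05e-12). The kinases Plk2 and Plk3 and the exonuclease Aen were lower in KO at day 4, by -2.04 ± 0.06, -1.68 ± 0.05 and -1.26 ± 0.05 (adjusted p at most 4.7e-12).

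The list did not move one way. Of the 37, 9 were higher in KO at both days, among them Perp, Eda2r, Ephx1 and Trp53inp1, and 2, Btg2 and Plk2, were lower at both. Plk3 and Sesn2 were lower at day 4 and higher at day 14, as Cdkn1a was. Another 7 were higher at day 4 and lower at day 14: Cd80, Ckap2, Ei24, Fas, Gtse1, Psrc1 and Sesn1. Cd80 was low throughout, with means of at most 1.35 CPM in the KO and WT groups. Of all tested genes, 35.7% were higher and 33.8% lower in KO at day 4, and 30.9% higher and 32.2% lower at day 14. The share of all tested genes with each pattern over both days was not counted, so these counts only describe the list. The difference between the days was tested and passed for 28, or 75.7% beside 64.7% of all tested genes. It was upward for 12 (30.7% of all tested genes) and downward for 16 (34.0%). Plk3 had 115 CPM in KO against 49.0 CPM in WT at day 14 and 59.5 against 190 CPM at day 4, a change in the KO effect of 2.91 ± 0.07 (adjusted p = 1.59e-14). Fas, a death receptor, had 41.0 CPM in KO against 64.1 CPM in WT at day 14 and 55.5 against 7.44 CPM at day 4, a change of -3.54 ± 0.14 (adjusted p = 7.24e-12).

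**Figure D4:**
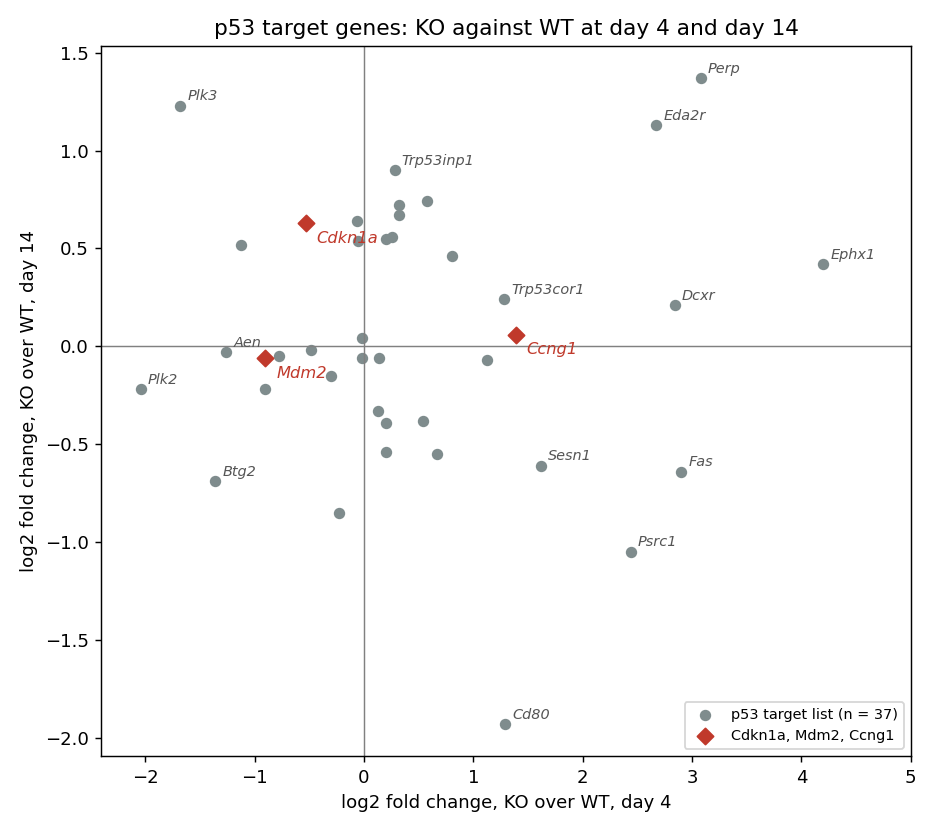
Log2 fold change of KO over WT at day 4 (horizontal) and at day 14 (vertical) for 37 listed p53 target genes (grey) and for Cdkn1a, Mdm2 and Ccng1 (red). The 2 axes use different libraries; Perp and Eda2r lie high on both, Plk3 is lower at day 4 and higher at day 14, and Ccng1 is away from 0 at day 4 only.

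In HET against WT, 26 of the 37 passed, or 70.3% beside 58.3% of all tested genes, with 15 higher and 11 lower. Without HET replicate 2, 28 passed, where the calls over all genes also rose, from 8910 of 15296 to 10083 of 15787. Trp53inp1, which promotes p53 activity, had 75.7 CPM in HET against 36.0 CPM in WT (1.07 ± 0.07, adjusted p = 4.84e-09), and the phosphatase gene Ppm1d 47.0 against 34.1 CPM (0.46 ± 0.06, adjusted p = 1.54e-05). Perp was lower, with 3.77 CPM in HET against 13.9 CPM in WT (-1.88 ± 0.12, adjusted p = 7.15e-10), as was the damage gene Gadd45a, with 47.0 against 92.2 CPM (-0.98 ± 0.11, adjusted p = 1.42e-06). In KO against HET, 27 passed, 13 higher and 14 lower, where 59.5% of all tested genes did. Without HET replicate 2, 24 passed, where 9554 of 15787 tested genes did. Leaving out each library of the 2 groups in turn gave 20 to 25. Over all genes these fits called from 8387 of 15755 to 9554 of 15787. Perp had 35.9 CPM in KO against 3.77 CPM in HET (3.25 ± 0.11, adjusted p = 6.13e-13), and the antiproliferative gene Btg2 30.1 against 64.3 CPM (-1.09 ± 0.07, adjusted p = 2.02e-09).

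The other 3 CDK inhibitor genes measured were Cdkn1c, Cdkn2d and Cdkn3. Cdkn1c, which encodes p57, had no count in any of the 6 KO libraries. HET held 135, 128 and 114 counts, WT at day 14 470, 435 and 490, and WT at day 4 181, 136 and 113. With the KO group set at 3 counts in all, its level was at least 511-fold lower in KO than in WT and at least 143-fold lower than in HET at day 14, and at least 136-fold lower than in WT at day 4, bounds that cover counting error only. Cdkn2d, which encodes p19Ink4d, averaged 34.3 ± 2.12 CPM in KO, 75.1 ± 12.7 CPM in HET and 63.2 ± 6.68 CPM in WT at day 14 (SD, n = 3 each). Its day 4 means were 37.1 ± 1.05 CPM for KO and 13.5 ± 0.354 CPM for WT. KO was lower than WT at day 14 by -0.88 ± 0.10 and higher at day 4 by 1.46 ± 0.11 (adjusted p = 1.87e-06 and 4.56e-09). Cdkn3, a phosphatase that acts on CDKs, did likewise, with -0.99 ± 0.16 at day 14 and 1.35 ± 0.19 at day 4 (adjusted p = 7.39e-05 and 8.89e-06).

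Of 9 neighbours of the Cdkn2a and Cdkn2b genes on chromosome 4, 7 were tested. In HET against WT 5 were lower and 1 higher, where 29.9% of all tested genes were lower and 28.3% higher. KO against WT gave 3 higher and 2 lower at day 14 (30.9% and 32.2% of all tested genes). At day 4 it gave 5 higher and 2 lower (35.7% and 33.8%). KO against HET gave 5 higher and 0 lower (29.4% and 30.1%). Values of these genes without HET replicate 2 were not examined. Mtap, a methionine salvage enzyme, had a mean of 183 CPM in KO, 103 CPM in HET and 145 CPM in WT at day 14, so that KO was higher than WT by 0.34 ± 0.05 and HET lower by -0.49 ± 0.05 (adjusted p = 1.9e-05 and 3.69e-07). Klhl9 was lower in HET than in WT by -0.42 ± 0.07, Focad by -0.40 ± 0.13 and Hacd4 by -0.80 ± 0.12 (adjusted p at most 0.013), and Mllt3 was higher by 0.79 ± 0.12 (adjusted p = 2.21e-05). Dmrta1, also lower, and Elavl2, which did not pass, averaged 0.0325 and 0.210 CPM in HET against 0.249 and 0.450 CPM in WT. Ifne and Ifnz were below the filter on low counts.

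For the lists that follow, the shares of all tested genes were 30.9% higher and 32.2% lower in KO against WT at day 14, and 35.7% higher and 33.8% lower at day 4. Among 24 CDK and RB partners, KO against WT at day 14 gave 11 higher and 7 lower, and at day 4, 8 higher and 9 lower. Ccnd1 encodes cyclin D1, a partner of the kinases that INK4 proteins inhibit. Its RNA was higher in KO at both days, with 39.2 against 15.6 CPM at day 14 and 41.1 against 2.60 CPM at day 4 (1.33 ± 0.10 and 3.97 ± 0.13, adjusted p = 2.52e-08 and 1.52e-13). Ccnd2, for cyclin D2, was lower at day 14, with 24.2 CPM in KO against 66.7 CPM in WT (-1.46 ± 0.10, adjusted p = 8.83e-09). Of 24 proliferation markers, 14 were lower and 4 higher in KO at day 14, and 10 lower and 9 higher at day 4. Their sum was 4982 to 5001 CPM in KO, 5500 to 5534 CPM in HET and 5365 to 5468 CPM in WT at day 14. For day 4 it was 5438 to 5531 CPM in KO, against 6029 to 6070 CPM in WT. Of 22 regulators and partners of p53, KO against WT gave 9 higher and 8 lower at day 14 and 7 higher and 9 lower at day 4. The deacetylase Sirt1 was lower in KO at both days, with 36.8 against 49.0 CPM at day 14 and 45.8 against 120 CPM at day 4, and the checkpoint kinase Chek2 higher, with 46.2 against 32.1 CPM at day 14 and 38.1 against 17.8 CPM at day 4 (adjusted p at most 5.63e-05 for the 4 differences).

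Of 27 regulators of the INK4 genes, mostly Polycomb components, KO against WT gave, beside the same shares of all tested genes, 9 higher and 8 lower at day 14, and 9 higher and 10 lower at day 4. Ets2, a factor known from human cells to activate the p16 gene, was higher in KO at day 14, with 230 CPM against 122 CPM in WT, and lower at day 4, with 216 against 415 CPM (0.92 ± 0.04 and -0.94 ± 0.04, adjusted p = 2.93e-11 and 7.09e-12). In HET it was 275 CPM against 122 CPM in WT (1.17 ± 0.04, adjusted p = 2.56e-12). Kdm6b, a demethylase that removes the Polycomb mark, was lower in KO at day 4, with 32.5 CPM against 119 CPM in WT (-1.87 ± 0.18, adjusted p = 2.27e-07). At day 14 the Kdm6b means stood the other way, with 58.4 CPM in KO against 34.5 CPM in WT. Of 11 tested p27 turnover genes, 4 were higher and 1 lower in KO at day 14, and 4 higher and 3 lower at day 4; Foxo3, a transcription factor that activates Cdkn1b, was lower at day 4, with 154 against 381 CPM (-1.31 ± 0.09, adjusted p = 1.47e-09). Of 13 genes of the TGF-beta pathway, 9 were higher and 2 lower in KO at day 14, and 5 higher and 8 lower at day 4. A list of 20 senescence genes held mostly genes of secreted factors, but also Lmnb1, Hmgb1, Hmgb2 and Glb1. Of the 20, 6 were higher and 10 lower in KO at day 14, and 6 higher and 12 lower at day 4. Mmp3 had 189 CPM in KO against 35.3 CPM in WT at day 14, and 17.7 against 512 CPM at day 4. Mmp13 was lower in KO at both days, with 43.1 against 1002 CPM at day 14 and 5.81 against 390 CPM at day 4.

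For 5 members the highest group mean was at least 2 times the lowest, and the 3 genes of most like pattern over all 15 libraries were found for each, by Pearson's r of log2 values. The libraries fall into 5 groups, so these r mainly compare group levels and are given as a description. They were Cox6a1 (0.992), Dctn3 (0.990) and Timp1 (0.989) for Cdkn2a, and Pla2g16 (0.986), Vcp (0.979) and Mtln (0.975) for Cdkn2b. For Trp53 they were Wdr74 (0.990), Trip13 (0.986) and Lrig1 (0.983), and for Mdm2 they were Map2k1 (0.982), Znrf1 (0.979) and Atp2b1 (0.977). For Ccng1 they were Mid2 (0.987), Plod1 and Slc25a12 (both 0.986). No gene served 2 members.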

How the data were processed

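Per the labels' protocols, RNA was extracted with an RNeasy kit and made into libraries with the TruSeq RNA v2 kit, which does not mark strand. The authors deposited raw counts per gene, 1 file per library. Per the submitters' processing notes, TopHat2 2.1.0, HTSeq, DESeq2 and GRCm38.p4 were used. Which HTSeq and DESeq2 releases, gene annotation and strand setting the authors chose is not given in the sources that were read. GENCODE M21, also on GRCm38, gave symbols to 46005 of 46603 IDs.

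From these counts, edgeR 4.0.16 (R 4.3.3) fitted all 15 libraries, 1 coefficient per group, after filterByExpr and TMM scaling, with robust quasi-likelihood F tests of 7 comparisons. P-values were adjusted by Benjamini-Hochberg over the 15296 genes tested, with a threshold of 0.05. A standard error is the Wald error of the fit, with variance never below counting error. CPM per kilobase uses the M21 exon length. The pipeline was tested on simulated data.

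The 8 genes and all lists were chosen with earlier results of these data known. Further genes are named where they are CDK inhibitors, locus neighbours, or among up to 3 risen and 3 fallen genes of a list with the smallest adjusted p, at least 5 CPM in the higher group and no overlap of replicates. Cd80, Ei24 and Gtse1, and the osteoblast and macrophage markers named, were picked after their values were seen. Genes of like pattern had at least 10 CPM in their highest group. Promoter sequences are from RefSeq.

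Replicate numbers did not pair libraries: over 30 pairs of same-numbered libraries the correlation of deviations from group means was -0.15 to 0.179, with 1 over 0.1. The alternatives were the Wald test of DESeq2 1.42.0, scaling by RLE, a filter of 1 count in all or of 1 CPM in 3 libraries, a fit of the compared groups alone, the replicate block, leaving out each library in turn, and levels on raw totals.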

Additional observations from a re-analysis of the deposited data

Results flagged for a closer look

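For each of the 8 genes the effect of the Actb knockout differed between the days, by an interaction test in the edgeR fit (KO over WT at day 14 minus KO over WT at day 4). The difference was upward for 3 genes: 1.16 for Cdkn1a, 0.84 for Mdm2 and 0.76 for Trp53 on the log2 scale. It was downward for 5: -1.33 for Ccng1, -1.0 for Cdkn2a, -0.91 for Cdkn2c, -0.68 for Cdkn2b and -0.61 for Cdkn1b. Trp53 was lower in KO at both days, and Cdkn1a and Cdkn2c passed the threshold in opposite directions at the 2 days. Cdkn1b did so too, but its day 4 call (0.15, adjusted p = 0.0305 in edgeR) ended with RLE scaling (adjusted p = 0.0516), with no filter beyond 1 count (adjusted p = 0.216) and without any 1 of the 6 libraries compared (adjusted p = 0.0518 to 0.142). The adjusted p of the interaction was 0.00115 or less for all 8, and 64.7% of all tested genes passed it. No cause of these differences was tested.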

How the results depend on the processing

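No call of the 8 genes changed direction under any alternative. DESeq2 and the filter of 1 CPM in 3 libraries changed none of the 56 calls. RLE scaling ended 2. With no filter beyond 1 count, 4 calls ended and Cdkn2a in HET against WT passed (-0.17, adjusted p = 0.0417); with only the groups compared, 3 ended and Cdkn2a in KO against WT at day 14 passed (-0.19, adjusted p = 0.0295). All calls that ended were of Cdkn1b (HET against WT, KO against WT at day 4) or Cdkn2c (HET against WT, KO against HET), each between -0.20 and 0.16 on the log2 scale. Leaving out 1 library ended 15 calls of the same 2 genes and gave the 2 Cdkn2a calls without HET replicate 2; the cause was not tested. Over these fits, 4 of the 8 genes passed for KO against WT at day 14, 6 to 7 for HET against WT and for KO against HET, and 7 at day 4.

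The replicate number did not pair libraries. With it as a block the log2 fold change of Cdkn1a was 0.63 for KO over WT at day 14 and -0.53 at day 4, and the block ended 1 call, Cdkn2c in KO against HET (-0.15, adjusted p = 0.0519), and no other. On raw library totals 22 of 40 group levels moved by more than the SD, with WT levels of day 14 1.06 times those on scaled sizes and WT levels of day 4 0.922 times.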
